A study of Mus musculus with 12 samples.

Results

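The comparison described here is that of the Laminectomy scar with unoperated paraspinal tissue, over all genes. Its members were the mice whose labels give the treatment as Laminectomy or No operation, 4 of each, which makes 8 of the 12 mice in the series. The other 4 mice carried the label SHAM, for scar from soft-tissue surgery without lamina excision, and served to set the spread between mice and for 1 short comparison at the end. The study asked how scar forms around the spinal canal after spine surgery. According to its methods, the animals were BALB/c mice aged 5 to 7 weeks and of both sexes, with no genetic alteration named for these groups, and the paraspinal muscles were parted from the spinous processes of T12 to L2, whose laminae were then removed to expose the dura mater. Scar and the soft tissue beside the spine were taken on day 7 after surgery, and soft tissue alone from the mice with No operation, all for poly(A) RNA sequencing. Neither the sex nor the age of single mice is given in the labels, and the Y-linked genes Uty, with 3 to 9 counts in each of the 12 mice, and Eif2s3y, with 4 counts in Laminectomy mouse 3 and 0 in the others, were near 0 in every library. These genes thus gave no clear sign of a male mouse among the 12. In the published peer review, a reviewer of an earlier version wrote that the laminectomy model used female mice only. The submitters wrote that they used 3 of the 4 replicates per group for their own tests without saying which, so that all 4 were used here.

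Paraspinal tissue is mostly skeletal muscle, with fascia, fat, vessels and nerve. After injury, dead fibres are cleared by neutrophils and then macrophages, satellite cells divide and fuse into new fibres that first carry embryonic and neonatal contractile proteins, and fibroblasts lay down a provisional matrix that is rebuilt as collagen scar. Removal of a lamina also opens bone and marrow, beside which osteoclasts and osteoblasts work on the cut edge.

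Total counts lay between 16802988 and 18001867 in the 8 mice, so that depth hardly differed. The first principal component of log2 counts per 1000000 (CPM) held 72.38% of the variance and parted all 4 Laminectomy mice from all 4 No operation mice. Several libraries stood apart within their group. Laminectomy mice 2 and 3 had counts of markers of central nervous tissue: Snap25, of the synaptic vesicle machinery, had 1227 and 458 counts there against 2 at most in any other mouse of either group, and Mobp, of oligodendrocyte myelin, had 445 and 104 counts against 1 at most. Of 15 neuron genes only 4 passed the filter, and their summed level over all 15 was 22.3, 301, 79.3 and 21.4 CPM in the Laminectomy mice against 13.2 to 17.95 CPM without operation; Olig2, of oligodendrocyte precursors, was at 0 in the other 6 mice. No operation mice 2 and 3 had counts of markers of bone and marrow: Ibsp, a bone sialoprotein made by osteoblasts, had 3553 and 1111 counts there against 7 and 15 in No operation mice 1 and 4, and Mpo, the myeloperoxidase of marrow granulocyte precursors, had 5661 and 1741 counts against 13 and 30. No operation mouse 1 had the highest levels of several injury genes in its group, such as Arg1 with 41.0 CPM against 0.38 at most in the other 3, and Laminectomy mouse 1 had the lowest level of muscle genes in its group. SHAM mouse 1, which enters the estimate of the spread behind every SE, was low in genes of new muscle, with Myog at 0.955 CPM against 70.1 to 115 in the other SHAM mice, Myh3 at 1.35 against 587 to 1009 CPM and Chrna1 at 1.80 against 82.1 to 109 CPM. Without it the log2 fold changes of Myog, Myh3, Myh8 and Chrna1 between Laminectomy and No operation hardly moved, and their SEs fell to 0.293, 0.38, 0.385 and 0.146. The calls of named genes and lists that changed most without these libraries are given below or among the limits at the end. Settings that leave out 2 mice at once were chosen after these values were seen. Leaving out No operation mice 2 and 3 leaves 2 mice in that group and takes away its highest values of marrow and bone genes.

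**Figure D1:**
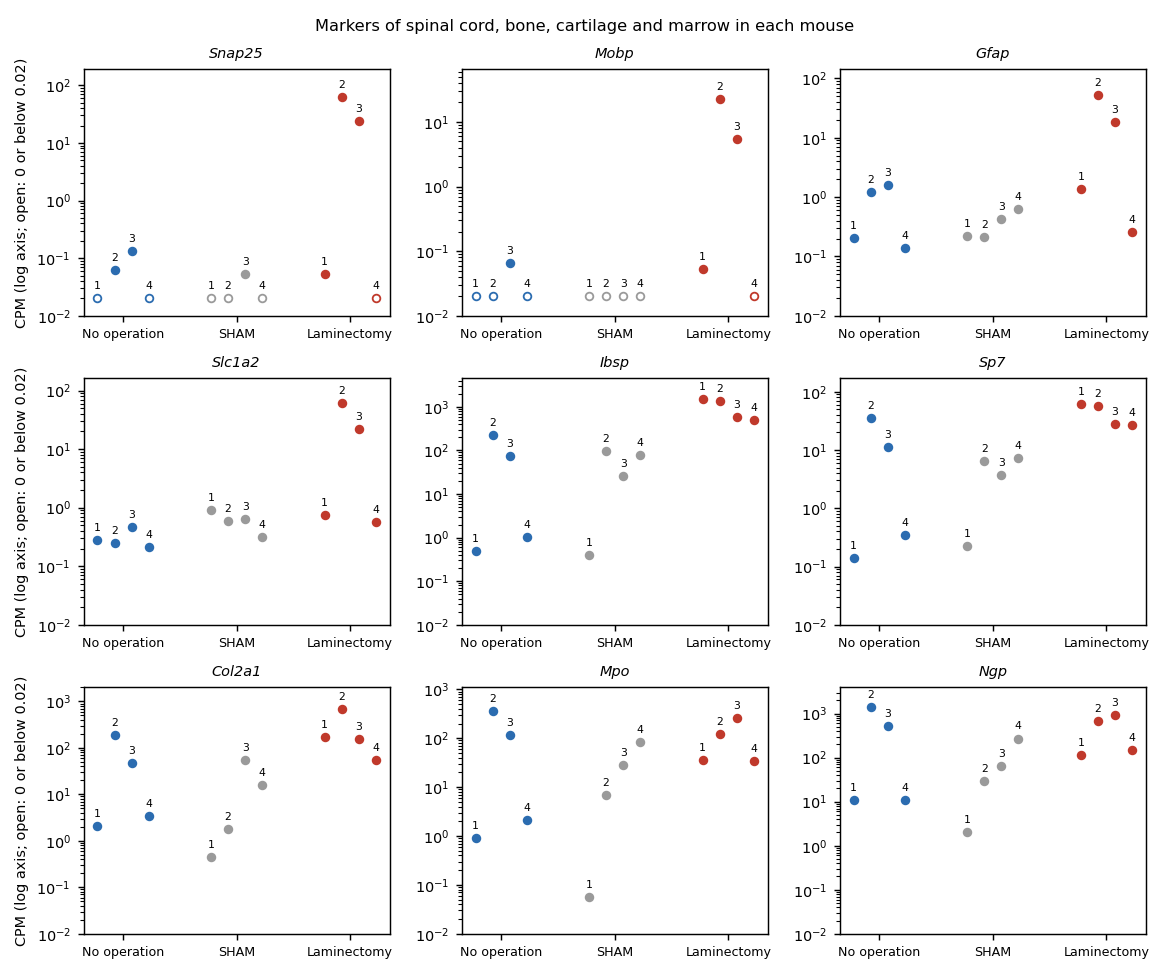
CPM on a log axis of 9 marker genes in each mouse of the No operation and Laminectomy groups, with 1 point a mouse and open points for values of 0 or below 0.02. Among the No operation and Laminectomy mice, the markers of central nervous tissue (Snap25, Mobp, Gfap, Slc1a2) are high only in Laminectomy mice 2 and 3. Those of bone, cartilage and marrow (Ibsp, Sp7, Col2a1, Mpo, Ngp) split the No operation mice, with mice 2 and 3 far above mice 1 and 4.

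Of 18996 genes, 14765 passed the filter on low counts and were tested with edgeR's quasi-likelihood test. Genes with an adjusted p (Benjamini-Hochberg over all genes tested) below 0.05 and a log2 fold change beyond 0.5 either way are called differentially expressed (DEGs). There were 7183 DEGs, which is 48.6% of the genes tested: 3578 (24.2%) were higher in the Laminectomy scar and 3605 (24.4%) were lower. These 2 shares are the background against which the counts of list members below are read. The median size of the DEGs was 1.18 on the log2 scale. Changes of more than 2 were found for 713 higher and 855 lower DEGs, and of more than 4 for 58 and 123. The 4 Laminectomy values all lay above the 4 No operation values in 3197 of the higher DEGs, and all below them in 3391 of the lower DEGs. Over all genes tested, called or not, the 2 groups did not overlap in 8263 (56.0%), so a lack of overlap was common here. The median log2 fold change over all genes tested was 0.01. The higher DEGs took up 13.4% of all counts in the No operation mice and 40.5% in the Laminectomy mice, and the lower DEGs took up 53.9% and 17.8%. With library totals alone in place of TMM scaling, all genes shifted up by 0.32 in the median, and 69.9% of DEGs were higher instead of 49.8%, so that small changes below depend on the scaling. In whole tissue, fewer cells of a type and less RNA per cell cannot be told apart.

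**Figure D2:**
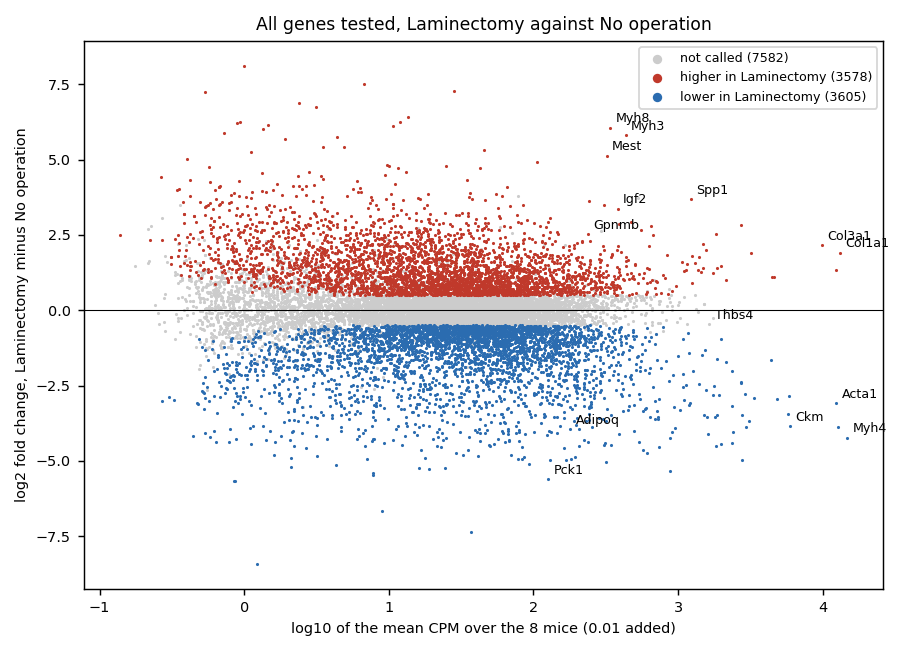
Log2 fold change (Laminectomy minus No operation) of the 14765 genes tested against their mean level, as log10 of CPM with 0.01 added. Red points are the 3578 higher DEGs, blue points the 3605 lower DEGs and grey points the 7582 genes not called; the genes of highest level that fell are contractile and energy genes of muscle.

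The contractile genes of adult fast muscle had fallen. All 14 genes of the fast-fibre list were lower, with a median log2 fold change of -3.61. Their summed level was 90010, 94290, 111000 and 128300 CPM in No operation mice 1 to 4 and 2735, 11820, 10330 and 9669 CPM in Laminectomy mice 1 to 4, a mean 12.3-fold lower, and every Laminectomy mouse was below every No operation mouse. Myh4 (gene 17884, chr11:67237812-67260447), the myosin heavy chain of the fastest glycolytic fibres, was at 17510, 29340, 30700 and 34500 CPM in the No operation mice and at 349.7, 2409, 1894 and 1345 CPM in the Laminectomy mice, in the order of mice 1 to 4 that is kept throughout. Its log2 fold change was -4.22 (SE 0.61, adjusted p 0.000155). The lowest of the 4 scar values, well below the next one, came from Laminectomy mouse 1.

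Pvalb, the parvalbumin that buffers calcium in fast fibres, changed by -4.45 on the log2 scale (SE 0.70, adjusted p 0.000277). Tnnt3, the fast troponin T, changed by -3.46 (SE 0.53), Atp2a1, the calcium pump of the fast sarcoplasmic reticulum, by -3.88 (SE 0.54), and Acta1, skeletal actin, by -3.08 (SE 0.55). The largest fall among well expressed contractile genes was that of Mylk4, a myosin light chain kinase, at -5.33 (SE 0.41, adjusted p 5.58e-06), from between 845.5 and 2248 CPM to between 19.6 and 60.5 CPM. Ankrd2, a stretch-responsive repeat protein, changed by -4.97 (SE 1.07), although No operation mouse 1 alone had 969.7 CPM of it against 160 at most in the other 3.

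Slow-fibre genes fell less evenly. Of 11 members, 6 were lower and none higher, with a median of -0.62. Myh7, the slow myosin heavy chain, was at 1831, 1404, 1301 and 663.9 CPM without operation and at 20.9, 245, 199 and 206 CPM in the scar, a log2 fold change of -2.96 (SE 0.75, adjusted p 0.00536). Tnni1, the slow troponin I, had a log2 fold change of 0.15 and Tnnc1, the slow troponin C, one of -0.61, and neither was called. All 14 genes of calcium release and excitation were lower, with a median of -2.93. Clcn1, the chloride channel that stabilises the resting fibre membrane, changed by -4.00 (SE 0.50, adjusted p 6.01e-05), and Ryr1, the calcium release channel, by -2.81.

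Contractile genes of developing fibres had moved the other way. Of 5 members, 4 were higher, with a median of 4.91, and their summed level was 66.0, 557, 223 and 335 CPM without operation against 1630, 2777, 2181 and 2554 CPM in the scar. Myh3 (gene 17883, chr11:67078273-67102291), the embryonic myosin heavy chain, stood at 20.1, 7.37, 21.3 and 12.1 CPM and rose to 664.6, 1018, 821 and 918 CPM, a log2 fold change of 5.81 (SE 1.22, adjusted p 0.00176). Myh8, the perinatal myosin heavy chain, rose by 6.06 (SE 1.22), the largest rise among genes with a mean of at least 100 CPM in 1 of the groups. Myl4, an atrial and embryonic light chain, rose by 4.91 (SE 0.90) and Tnnt2, the cardiac and embryonic troponin T, by 4.07 (SE 1.00). Actc1, cardiac actin, had a log2 fold change of 0.76 and was not called. The myosin genes and Acta1 resemble one another in sequence and their deposited counts hold fractions, so a part of their reads may have been shared out between relatives.

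The genes by which myoblasts leave the cell cycle and fuse rose as well. Of 15 satellite cell and myogenic genes, 7 were higher and 2 lower, with a median of 0.59. Myog, the transcription factor of the differentiating myoblast, was at 18.9, 6.93, 7.93 and 12.3 CPM without operation and at 124, 133, 120 and 132 CPM in the scar, a log2 fold change of 3.46 (SE 0.87, adjusted p 0.0052). The 4 scar values lay within a narrow band and far above all 4 others. Mymk, the fusogen myomaker, had 4, 2, 8 and 7 counts in the No operation mice and 958, 1243, 1022 and 1099 counts in the Laminectomy mice. Mymx, its partner myomixer, had 0, 1, 2 and 1 counts against 247, 251, 220 and 315. Both were DEGs (both chosen here after their values were seen). Pax7, the marker of the quiescent satellite cell, stood between 7.43 and 12.6 CPM without operation and between 7.15 and 12.5 CPM in the scar, with a log2 fold change of 0.04 (SE 0.55, adjusted p 0.954), and Myod1, which commits them to the muscle lineage, had one of 0.45 that was not called. Myf6, the myogenic factor of mature fibres, fell by 1.71.

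At the synapse, 3 subunit genes of the fetal acetylcholine receptor (Chrng, Chrna1 and Chrnd) rose and the adult subunit gene Chrne fell, while Chrnb1, a subunit of both forms, was not called (-0.48, SE 0.48). Chrng, the gamma subunit of the fetal receptor, had 5, 0, 5 and 8 counts without operation and 384, 587, 543 and 537 counts in the scar, and was a DEG. Chrne, the epsilon subunit that replaces it in innervated adult fibres, was at 6.89, 16.2, 10.5 and 15.9 CPM and fell to 0.48, 1.65, 1.66 and 2.92 CPM, a log2 fold change of -2.88 (SE 0.72, adjusted p 0.00495). Chrna1, the alpha subunit common to both forms, rose by 2.13 (SE 0.73, adjusted p 0.0253); all 4 scar values were higher, but the call was lost without No operation mouse 3 (adjusted p 0.0645) or without No operation mouse 4 (0.0556). Of the 12 receptor and synapse genes, 3 were higher, a share close to the 24.2% over all genes, 1 was lower and 8 were not called, among them Musk, the receptor kinase of synapse formation, with -0.63. Without No operation mice 2 and 3, 1 member was called higher, and without Laminectomy mice 2 and 3 or without mouse 1 of both groups, 2 were.

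The proximal promoters of 5 of these genes are shown because their mRNAs moved in opposite directions. The E-box CANNTG, which reads the same on both strands, is the short motif bound by myogenic factors such as Myog and Myod1, and CAGCTG is 1 form of it. Each line gives the 150 bases before the start used in RefSeq's promoter table (GRCm38.p6), 5′ to 3′ on the strand of the gene, with each CANNTG in capitals. For Myh3 that start lies a little inside the bounds of the gene given above, so the end of its window overlaps the annotated gene. The regions are, in order, chr1:134289854-134290003 (+), chr1:87205661-87205810 (+), chr2:73580339-73580488 (-), chr11:67078150-67078299 (+) and chr11:67237662-67237811 (+).
Myog: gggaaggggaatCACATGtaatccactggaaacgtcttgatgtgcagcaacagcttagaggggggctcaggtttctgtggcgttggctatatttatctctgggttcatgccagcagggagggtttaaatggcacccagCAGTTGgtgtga
Chrng: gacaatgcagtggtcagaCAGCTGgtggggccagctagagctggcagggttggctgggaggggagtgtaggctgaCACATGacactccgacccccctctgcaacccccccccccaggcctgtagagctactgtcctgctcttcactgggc
Chrna1: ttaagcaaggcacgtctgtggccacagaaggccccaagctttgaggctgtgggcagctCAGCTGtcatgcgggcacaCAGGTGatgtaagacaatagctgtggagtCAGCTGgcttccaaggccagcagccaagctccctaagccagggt
Myh3: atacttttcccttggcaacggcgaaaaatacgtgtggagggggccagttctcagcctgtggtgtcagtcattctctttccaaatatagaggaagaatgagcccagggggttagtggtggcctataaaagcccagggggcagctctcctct
Myh4: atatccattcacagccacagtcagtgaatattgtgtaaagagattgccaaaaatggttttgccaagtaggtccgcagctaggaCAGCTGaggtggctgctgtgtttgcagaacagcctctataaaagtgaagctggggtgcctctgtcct

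The windows of Myog, Chrng, Chrna1, Myh3 and Myh4 held 2, 2, 3, 0 and 1 copies of CANNTG. Over 250 bases before the start, 66.0% of 27025 genes held CANNTG and 12.8% held CAGCTG. The latter was present in 4 of the 8 receptor and synapse genes with a promoter in the table, 5 of the 10 fast-fibre genes, 1 of the 5 developmental contractile genes and 0 of the 6 myogenic genes. The motif was thus found before genes that rose (Chrng, Chrna1, Tnnt2), before genes that fell (Chrne, Myh4, Mylpf, Myl1, Atp2a1, Casq1) and before Musk, which was not called, and a match is a description of the letters only.

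Energy metabolism of muscle was lower throughout. Of 77 subunits of the respiratory chain, 75 were lower and 2 higher, with a median of -1.25, and without TMM scaling 65 were lower. By complex, the median was -1.28 over 36 subunits of complex I, -1.33 over 4 of complex II, -1.31 over 9 of complex III, -1.13 over 13 of complex IV and -1.05 over 14 of complex V. Single subunits spread more widely in complex IV, from 0.65 to -3.6, than in complex I, from -0.71 to -2.09. Differences between complexes were not tested. All 34 genes of fatty acid oxidation and the citrate cycle were lower, with a median of -1.59. Ppargc1a, the coactivator that drives mitochondrial biogenesis, was at 31.6, 33.1, 38.2 and 48.0 CPM and fell to 1.01, 5.24, 4.66 and 3.55 CPM, a log2 fold change of -3.38 (SE 0.43, adjusted p 7.05e-05). No value of the scar came near the lowest value of the other group.

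Glycogen and glycolysis genes of muscle fell more than the respiratory chain in the median. Of 16 members, 15 were lower and only Pgm1, a phosphoglucomutase, was higher, with a median of -3.23. Pygm, muscle glycogen phosphorylase, changed by -3.88 (SE 0.55, adjusted p 0.000143), and Aldoa, the muscle aldolase, by -2.85 (SE 0.20, adjusted p 3.86e-06). Ckm, muscle creatine kinase, stood at 8124, 9953, 12070 and 14460 CPM and fell to 183, 1052, 1012 and 836 CPM, a log2 fold change of -3.86 (SE 0.59). Among 13 further glycolysis genes, listed as forms used outside muscle although not all are confined to it, 5 were higher and 5 lower. Their summed level was 5232, 7208, 7417 and 8341 CPM without operation and 5790, 3949, 3707 and 3496 CPM in the scar. Hk2, the insulin-responsive hexokinase, which muscle also uses, fell by 2.65 on the log2 scale (SE 0.22), while Eno1, the general enolase, rose by 1.49 (SE 0.26).

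In 13 pairs of genes that encode an adult muscle form and another form of the same protein (pairs put together after the values were seen), the adult muscle form was lower in all 13. The other form was higher in 11. In cytochrome c oxidase, Cox6a2 and Cox8b, the muscle forms, changed by -3.56 (SE 0.51) and -3.60 (SE 0.52), while Cox6a1 and Cox8a rose by 0.65 (SE 0.10) and 0.53 (SE 0.08), the only 2 rises in the respiratory chain list. Cox7a2 fell together with its muscle partner Cox7a1, by 0.56 against 3.22. The ribosomal protein Rpl3l, which replaces Rpl3 in adult muscle ribosomes, changed by -4.85 (SE 0.61), and Rpl3 rose by 1.08 (SE 0.13), the largest rise among 68 cytosolic ribosomal proteins. Slc2a4, the insulin-responsive glucose carrier of muscle and fat, changed by -4.47 (SE 0.58), and Slc2a1, the general carrier, had a log2 fold change of 1.13 (SE 0.46, adjusted p 0.0523) that was not called.

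**Figure D3:**
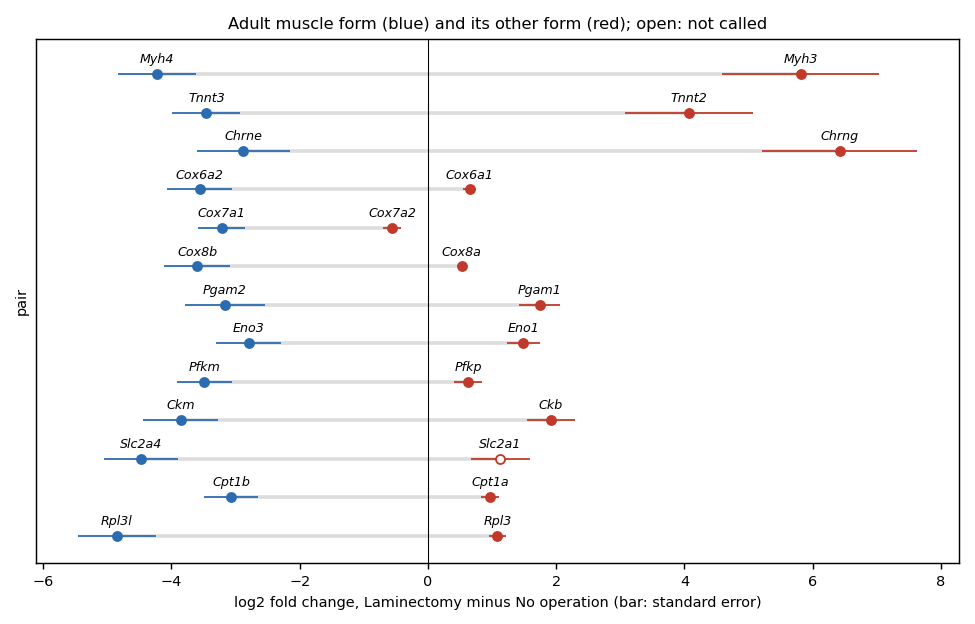
Log2 fold change (Laminectomy minus No operation) with its standard error for 13 pairs of an adult muscle form and another form of the same protein. All 13 adult forms lie below 0, from -4.85 (Rpl3l) to -2.80 (Eno3), and the other forms lie above 0 except Cox7a2 at -0.56.

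Genes of muscle wasting were lower too. Of 16 members, 10 were lower and 2 higher, with a median of -1.29. Fbxo32, the ubiquitin ligase atrogin 1, was at 493, 210, 184 and 342 CPM without operation and at 17.5, 33.8, 83.3 and 41.2 CPM in the scar, a log2 fold change of -2.81 (SE 0.50, adjusted p 0.000593). Mstn, myostatin, which restrains muscle growth, changed by -3.93. Runx1, a transcription factor known to be induced in denervated muscle and present in blood cells, rose by 2.37 (SE 0.38, adjusted p 0.000298), from between 12.8 and 63.5 CPM to between 151 and 189 CPM.

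Adipocyte genes fell as far as those of fast fibres. Of 21 tested members, 20 were lower and none higher, with a median of -3.71, and only Acly, an enzyme of citrate cleavage that many cells use, was not called (-0.39). The summed level of the list was 7464, 15280, 13860 and 14630 CPM without operation and 551, 958, 1349 and 1143 CPM in the scar, a mean 12.8-fold lower. Adipoq, the adipocyte hormone adiponectin, stood at 214, 480, 289 and 368 CPM and fell to 2.49, 18.8, 36.0 and 30.6 CPM, a log2 fold change of -3.94 (SE 0.98, adjusted p 0.00466). Pck1, a phosphoenolpyruvate carboxykinase of glycerol synthesis in fat, had the largest fall among genes with a mean of at least 100 CPM in 1 of the groups, at -5.60 (SE 1.26, adjusted p 0.00258). Scd1, a fatty acid desaturase, changed by -4.96 (SE 1.07), and Ces1d, a carboxylesterase of lipid droplets, by -5.09 (SE 1.40).

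Collagen genes of scar rose in all 4 Laminectomy mice. Of 13 fibrillar and fibril-associated collagens, 11 were higher and none lower, with a median of 1.76. Their summed level was 26870, 25830, 16480 and 6720 CPM without operation and 68220, 71480, 62970 and 55520 CPM in the scar, a mean 3.40-fold higher. Col1a1 (gene 12842, chr11:94936224-94953042), the main chain of type I collagen, was at 6428, 9386, 4790 and 1609 CPM and rose to 24530, 25050, 17290 and 16530 CPM, a log2 fold change of 1.91 (SE 0.43, adjusted p 0.00276). The lowest scar value was well above the highest value without operation, while the No operation mice spread more widely among themselves. Col3a1, the chain of early scar collagen, rose by 2.17 (SE 0.60, adjusted p 0.00888) and was at 9680 CPM in No operation mouse 1 against 2180 at most in the other 3. Col5a1, which starts fibrils, rose by 2.52, and Col12a1, which binds to their surface, by 1.29 (SE 0.29).

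The enzymes that fold, hydroxylate, cut and crosslink collagen rose with it. Of 24 members, 21 were higher and none lower, with a median of 1.35. Lox, the lysyl oxidase that crosslinks fibrils, was at 530, 158, 172 and 74.5 CPM and rose to 1284, 784, 1100 and 914 CPM, a log2 fold change of 2.13 (SE 0.51, adjusted p 0.00368). Loxl2, a relative of it, rose by 2.00 (SE 0.33). The members not called were Loxl4 (0.01), Adamts2 (0.06) and P4ha1 (0.14). The secretory pathway moved in the same direction: 17 of 27 genes were higher and 1 lower, with a median of 0.95. Creb3l1, a membrane-bound transcription factor of collagen-secreting cells, rose by 1.93 (SE 0.26, adjusted p 0.000105), and Hspa5, the main chaperone of the endoplasmic reticulum, by 0.74 (SE 0.20). Xbp1 (-0.01) and Atf4 (-0.35), which act in the unfolded protein response, were not called.

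Among 21 matricellular and provisional matrix genes, 11 were higher and 1 was lower. Spp1 (gene 20750, chr5:104435111-104441053), osteopontin, which is made by macrophages and bone cells, stood at 131, 424, 146 and 8.97 CPM and rose to 3566, 2014, 1718 and 1780 CPM, a log2 fold change of 3.68 (SE 0.82, adjusted p 0.00248). Postn, periostin of scar fibroblasts, was at 2053, 330, 189 and 99.6 CPM and rose to 4098, 4590, 5751 and 4687 CPM, by 2.84 (SE 0.77, adjusted p 0.00798). Without No operation mice 2 and 3 the log2 fold change of Postn was 2.17 and missed the threshold (adjusted p 0.0604), with No operation mouse 1 then making up a larger part of its group. Fn1, fibronectin, rose by 1.90 (SE 0.36) and Tnc, tenascin C of wounds, by 1.83 (SE 0.33). Tnxb, the tenascin of resting connective tissue, fell by 3.14. Thbs4, a thrombospondin of tendon and muscle, was at 2388, 945, 3112 and 1138 CPM without operation and at 709, 1816, 1642 and 1366 CPM in the scar, and the overlapping groups gave a log2 fold change of -0.46 (SE 0.59, adjusted p 0.525).

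Small leucine-rich proteoglycans, which set the width of collagen fibrils, went in both directions, with 3 of 13 higher and 8 lower (median -1.54). Dcn, decorin, was at 2322, 2826, 5245 and 2757 CPM and fell to 505, 1007, 1210 and 1242 CPM, a log2 fold change of -1.73 (SE 0.36, adjusted p 0.00163). Bgn, biglycan, rose by 1.41, Aspn, asporin, by 1.19 (SE 0.29), and Lum, lumican, by 1.03. Elastic fibre genes were likewise split, with 7 of 15 higher and 3 lower. Fbn2, the fibrillin of development, rose by 3.79 (SE 0.66, adjusted p 0.000537), from 22.9, 4.41, 4.13 and 1.19 CPM to 128, 100.2, 128 and 93.6 CPM. Ltbp4, a latent TGF-beta binding protein of elastic fibres, fell by 2.33, and Fbln5, a fibulin of elastic fibre assembly, had a log2 fold change of 0.23 (SE 0.17) and was not called.

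Basement membrane genes were close to the background, with 4 of 21 higher and 5 lower, and their median of -0.06 turned to 0.26 without TMM scaling. Lama2, the laminin chain around muscle fibres, fell by 1.36 (SE 0.28, adjusted p 0.00154), while Col4a1, the collagen of most basement membranes, rose by 0.64 (SE 0.18, adjusted p 0.00974). Of 22 matrix metalloproteinases and inhibitors, 13 were higher and 3 lower, with a median of 1.52. Timp1, an inhibitor induced by injury, stood at 54.2, 10.6, 8.53 and 3.92 CPM and rose to 201, 114, 99.6 and 160 CPM, by 2.89 (SE 0.66, adjusted p 0.00292). Its relative Timp4, found in muscle and fat, was at 28.5, 29.0, 42.1 and 65.3 CPM and at 0, 2.83, 3.00 and 1.46 CPM in the scar, a log2 fold change of -4.49 (SE 0.94). For both inhibitors the groups did not overlap, and their directions were opposite. Adamts4, an aggrecan-cutting protease, rose by 3.85 (SE 0.66). Mmp12, the elastase of macrophages, rose by 2.80 (SE 1.00, adjusted p 0.0303), a call that was lost without Laminectomy mouse 1, which alone had 415 CPM (adjusted p 0.0925), or without No operation mouse 3 (0.061). Of 15 plasminogen and coagulation genes, 8 were higher and 1 lower, with Plaur, the urokinase receptor, up by 1.85 (SE 0.43, adjusted p 0.00312).

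Fibroblast genes divided by state. Of 20 genes of activated fibroblasts, 15 were higher and 1 lower, with a median of 1.32, and of 22 genes of resting fibroblasts, none was higher and 12 were lower, with a median of -1.17. The summed level of the activated list went the other way and overlapped, at 7181, 3453, 4039 and 5546 CPM without operation and 3803, 4157, 3896 and 3728 CPM in the scar. Its member of highest level was Tpm2, a tropomyosin that muscle also makes, which fell from a mean of 3812 to 932.5 CPM. Acta2, the smooth muscle actin of myofibroblasts and vessel walls, was at 195, 78.1, 124 and 137 CPM and rose to 580, 393, 430 and 340 CPM, a log2 fold change of 1.71 (SE 0.31, adjusted p 0.000621). Pi16, a marker of resting fibroblast progenitors of the fascia, was at 353, 154, 242 and 274 CPM and fell to 5.72, 57.8, 69.0 and 53.3 CPM, by 2.46 on the log2 scale (SE 0.70, adjusted p 0.00969). Here too Laminectomy mouse 1 was the lowest. Smoc2, on the resting list as well, had a log2 fold change of -0.33 (SE 0.16) and was not called.

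Fap, the fibroblast activation protein, a surface protease that the study set out to target, was at 38.7, 88.9, 61.5 and 41.1 CPM without operation and at 93.9, 109, 98.0 and 83.5 CPM in the scar. The groups overlapped, since No operation mouse 2 was above Laminectomy mouse 4, and the log2 fold change was 0.74 (SE 0.23, adjusted p 0.0156). Without Laminectomy mice 2 and 3 it was 0.63 and no longer passed (adjusted p 0.101), and without mouse 1 of both groups it was 0.60 (adjusted p 0.0605). Lrrc15, a marker of myofibroblasts in scar and tumours, was at 155, 8.69, 6.0 and 2.10 CPM and at 189, 167, 242 and 172 CPM in the scar. It was not called (log2 fold change 2.16, SE 1.01, adjusted p 0.0829), and without No operation mouse 1 it was called at 5.10 (adjusted p 1.36e-05).

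Genes of the TGF-beta pathway moved in both directions. Over the list, 7 of 24 genes were higher and 4 lower, a share of higher calls close to the 24.2% over all genes, and without TMM scaling 12 were higher and 1 lower. Tgfb1, the ligand of inflammation, was at 43.8, 58.3, 38.4 and 26.2 CPM and rose to 145, 112, 87.3 and 83.6 CPM, a log2 fold change of 1.36 (SE 0.24, adjusted p 0.000512). Tgfb3 rose by 1.00 (SE 0.29, adjusted p 0.0111), and Tgfb2 had a log2 fold change of 0.17 and was not called. Inhba, the activin A subunit, rose by 1.47 (SE 0.51, adjusted p 0.0263), and its call was lost without Laminectomy mouse 1 (adjusted p 0.116), which had 123 CPM against 41.1 at most in the other 3, and without No operation mouse 1 (0.0504) or 4 (0.0685). Smad7, which blocks the receptors, fell by 0.70 and Smad3, a transducer, by 0.81.

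**Figure D4:**
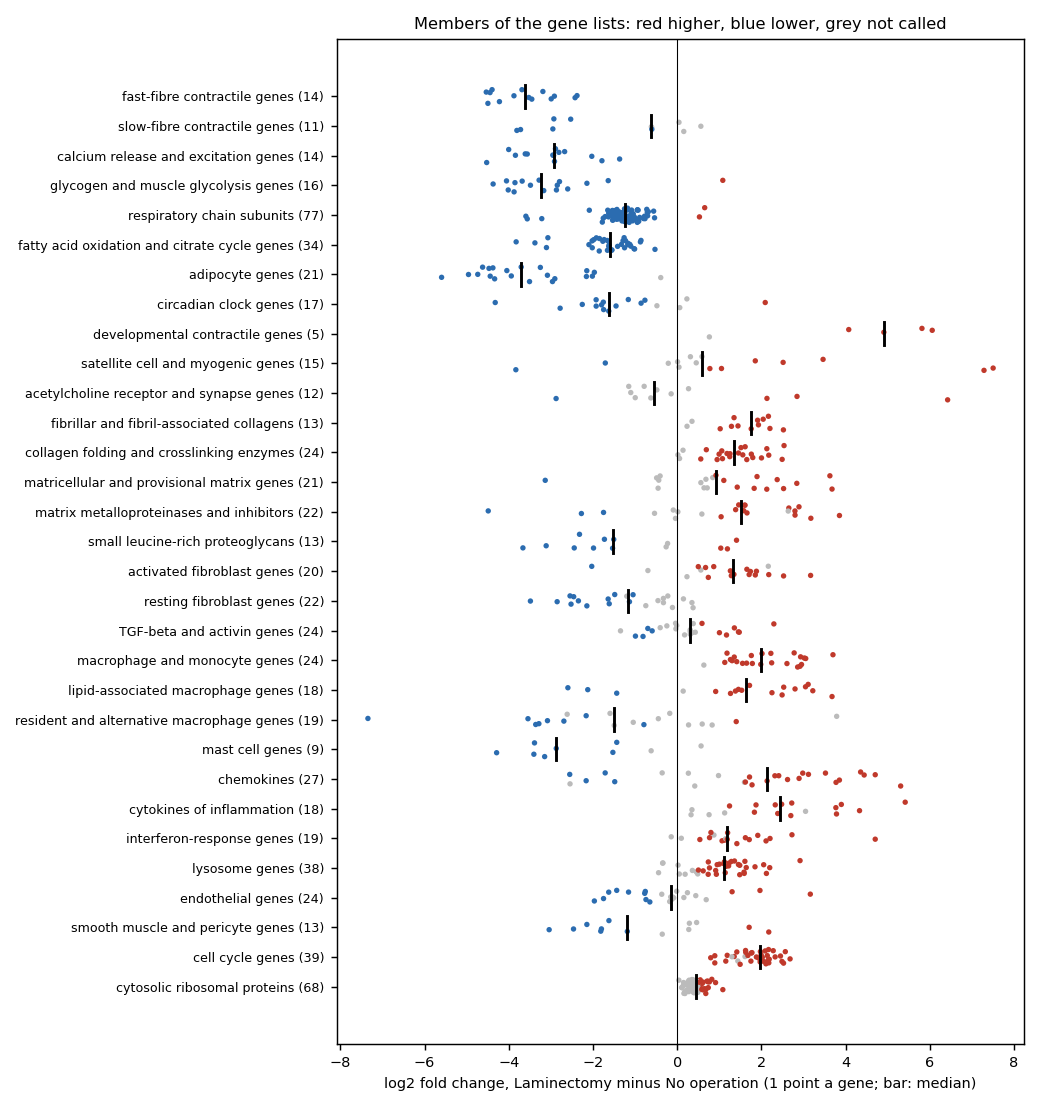
Log2 fold change (Laminectomy minus No operation) of each tested member of 31 gene lists, with 1 point a gene and a bar at the median of the list. Fast-fibre, calcium release, muscle glycolysis, adipocyte and fatty acid oxidation genes lie below 0 apart from Pgm1, and macrophage, cell cycle, lysosome, cytokine and collagen enzyme genes lie almost wholly above it.

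Macrophage genes were high in the scar. Of 24 general macrophage and monocyte genes, 23 were higher and none lower, with a median of 2.00, and their summed level was 2852, 2090, 1507 and 995 CPM without operation against 10010, 6146, 6700 and 6051 CPM in the scar. Adgre1, the F4/80 antigen of macrophages, was at 93.7, 41.7, 39.4 and 27.9 CPM and rose to 201, 163, 188 and 135 CPM, a log2 fold change of 1.76 (SE 0.35, adjusted p 0.00131). Ccr2, the receptor by which monocytes enter tissue, rose by 1.18 (SE 0.37, adjusted p 0.0154). Only Ly6c2, a monocyte surface protein, was not called (0.63).

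Of 18 genes of lipid-associated macrophages, 14 were higher and 3 lower, with a median of 1.62. Gpnmb (gene 93695, chr6:49036518-49058182), a membrane glycoprotein of phagocytes that take up debris, was at 88.3, 77.8, 77.1 and 37.0 CPM and rose to 392.4, 462, 452 and 312 CPM, a log2 fold change of 2.53 (SE 0.26, adjusted p 2.11e-05). Trem2, the lipid receptor of the same cells, rose by 3.22 (SE 0.53, adjusted p 0.000372). The 3 that fell, Lpl (-2.13), Cd36 (-1.44) and Apoc1 (-2.60), serve lipid uptake and transport, and the first 2 are also abundant in fat and muscle. Lysosome genes rose alongside, with 29 of 38 higher and none lower (median 1.11), and Ctsz, cathepsin Z, rose by 1.48 (SE 0.21, adjusted p 0.000123).

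Genes of resident and alternatively activated macrophages did not follow. Of 19 members, 1 was higher and 8 were lower, with a median of -1.50, and without mouse 1 of both groups 3 were higher and 6 lower, with a median of -0.67. Without TMM scaling 4 were higher and 7 lower. Their summed level overlapped, at 1652, 1097, 1394 and 1040 CPM without operation and 1359, 1313, 1737 and 1162 CPM in the scar. Lyve1, a hyaluronan receptor of resident macrophages and lymphatic vessels, was at 154, 46.8, 131 and 103 CPM and fell to 5.56, 16.6, 26.4 and 18.7 CPM, by 2.69 on the log2 scale (SE 0.60, adjusted p 0.00258). Retnla, a secreted protein of alternative activation, changed by -7.35. Arg1, the arginase of wound macrophages, was at 41.0, 0.38, 0.27 and 0.35 CPM without operation and at 456, 42.5, 29.2 and 51.2 CPM in the scar. Its log2 fold change of 3.79 (SE 1.67) was not called (adjusted p 0.0693), and without No operation mouse 1 it was 8.74 (adjusted p 0.00224). Without SHAM mouse 1 it was called at 3.80 (adjusted p 0.0485). Mouse 1 was the highest of each group, with 1665 CPM in SHAM mouse 1 against 232 at most in the other SHAM mice.

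Other leukocytes changed in different ways. Of 15 tested T and NK cell genes, 8 were higher and 3 lower, with a median of 1.20; Gzmb, granzyme B, rose from between 0.070 and 0.34 CPM to between 1.09 and 3.28 CPM (log2 fold change 3.46, SE 0.82, adjusted p 0.00357), so that all values were low. Of 9 mast cell genes, 7 were lower and none higher, with a median of -2.87, and Mcpt4, a mast cell chymase, changed by -3.39 (SE 0.77, adjusted p 0.00284). Of 15 MHC class II and dendritic cell genes, 5 were higher and 2 lower, and H2-Aa, a class II chain, had a log2 fold change of 0.26 (SE 0.18) and was not called. Of 11 B lineage genes, 1 was lower and none higher (median -0.76), and without No operation mice 2 and 3, which held marrow transcripts, 6 were higher and 1 lower (median 2.03).

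Neutrophil genes could not be read against all 4 No operation mice. Of 18 members, 3 were called higher, with a median of 0.47, but their summed level without operation was 132, 5457, 2014 and 50.3 CPM, the same split as that of Mpo and Ibsp, against 2449, 3299, 4746 and 1786 CPM in the scar. S100a8, a calgranulin of neutrophils, was at 14.8, 562, 231 and 3.92 CPM and at 120, 358, 647 and 170 CPM in the scar (log2 fold change 0.67, SE 1.11, adjusted p 0.624). Without No operation mice 2 and 3, all 18 members were called higher, with a median of 4.97, and S100a8 was at 5.13 (adjusted p 0.00278). Csf3r, the receptor of granulocyte colony-stimulating factor, moved from 1.64 (adjusted p 0.0531) to 3.25 (adjusted p 0.00398). Leaving out the mice highest in these genes raises their log2 fold changes by construction, so these calls are no separate support.

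Inflammatory signals rose widely. Of 27 chemokines, 17 were higher and 4 lower, with a median of 2.13, and of 18 cytokines and mediators, 13 were higher and none lower, with a median of 2.43. Il1b, interleukin 1 beta, was at 7.65, 9.19, 2.40 and 0.14 CPM and rose to 72.9, 79.0, 25.2 and 88.6 CPM, a log2 fold change of 3.77 (SE 0.76, adjusted p 0.00137). Ptgs2, the inducible cyclooxygenase of prostaglandin synthesis, rose by 4.33 (SE 0.56, adjusted p 8.12e-05), from 7.37 CPM at most to 41.3 CPM at least. Il11, a cytokine of fibroblasts, rose by 2.72 (SE 0.56), at levels of 6.43 CPM or less.

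Ccl2, the main attractant of monocytes, rose by 2.41 (SE 0.72, adjusted p 0.0125), although No operation mouse 1 with 30.3 CPM overlapped the lowest scar value of 30.2 CPM. Ccl8, a related chemokine, was not called (1.6, SE 0.78, adjusted p 0.0978) but was called at 3.06 without No operation mouse 1 (adjusted p 0.00229). Cxcl12, a constitutive chemokine of stroma, had a log2 fold change of 0.42 (SE 0.22, adjusted p 0.12). The chemokines that fell were Ccl11, Ccl24, Ccl21a and Cxcl14, of which Ccl21a is made by lymphatic vessels and Cxcl14 by resting stroma.

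Of 19 interferon-response genes, 15 were higher and none lower, with a median of 1.19, and without mouse 1 of both groups 10 were higher, with a median of 0.79. Isg15, a ubiquitin-like protein induced by interferon, was at 5.65, 11.3, 5.93 and 3.92 CPM and rose to 56.9, 24.1, 17.1 and 18.1 CPM, a log2 fold change of 2.11 (SE 0.47, adjusted p 0.00254). Laminectomy mouse 1 was the highest. Complement genes were split, with 6 of 19 higher and 8 lower (median -0.53). The phagocyte genes C1qa, C1qb and C1qc rose by between 1.13 and 1.41, while C7, a component of the membrane attack complex made by stroma, changed by -4.39 (SE 0.90, adjusted p 0.00149). C3, the central component, fell by 1.14 (SE 0.44, adjusted p 0.042), a call that was lost when any of 7 single mice was left out (all 4 No operation mice and Laminectomy mice 1, 2 and 4, with adjusted p from 0.053 to 0.098).

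Hmox1, heme oxygenase 1, which breaks down heme, was at 107, 46.7, 25.04 and 23.1 CPM and rose to 1022, 417, 438 and 382 CPM, a log2 fold change of 3.48 (SE 0.55, adjusted p 0.000283). Slc40a1, the iron exporter ferroportin, rose by 1.48 (SE 0.39, adjusted p 0.00628). Over 16 genes of heme and iron, 5 were higher (31.2% against 24.2% over all genes) and 1 lower.

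Vessel genes were lower in their sum and mixed as single genes. Of 24 endothelial genes, 3 were higher and 9 lower (37.5%, against 24.4% over all genes), with a median of -0.14, and without TMM scaling 5 were higher and 5 lower and the median was 0.18. Without Laminectomy mice 2 and 3, 5 were higher and 6 lower. Their summed level was 3146, 3296, 3053 and 3745 CPM without operation and 1897, 1703, 1687 and 2329 CPM in the scar, a mean 1.74-fold lower with no overlap. The members of highest level, Cd36 and Fabp4, are also abundant in fat and fell from a mean of 819 and 812 CPM to 302 and 207.5 CPM. Pecam1, an adhesion protein of all endothelium, stood between 172 and 245 CPM without operation and between 158 and 251 CPM in the scar, a log2 fold change of -0.12 (SE 0.17, adjusted p 0.582). Plvap, of fenestrated vessels, had 0.44 (SE 0.19, adjusted p 0.069) and Esm1, of sprouting tip cells, 0.24 (SE 0.39), and neither was called. The 3 that rose, Apln, Aplnr and Angpt2, take part in vessel growth and remodelling.

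Of 8 lymphatic genes, 6 were lower and 1, Pdpn, which fibroblasts also make, was higher. Prox1, the transcription factor that defines lymphatic endothelium, had a log2 fold change of -0.31 (SE 0.26) and was not called. Of 13 smooth muscle and pericyte genes, 7 were lower and 2 higher. Myh11, the myosin of contractile smooth muscle, changed by -1.80 (SE 0.42, adjusted p 0.00317) and Rgs5, a marker of pericytes, by -1.19 (SE 0.28). The higher members, Acta2 and Cnn1, are also on the list of activated fibroblasts.

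**Figure D5:**
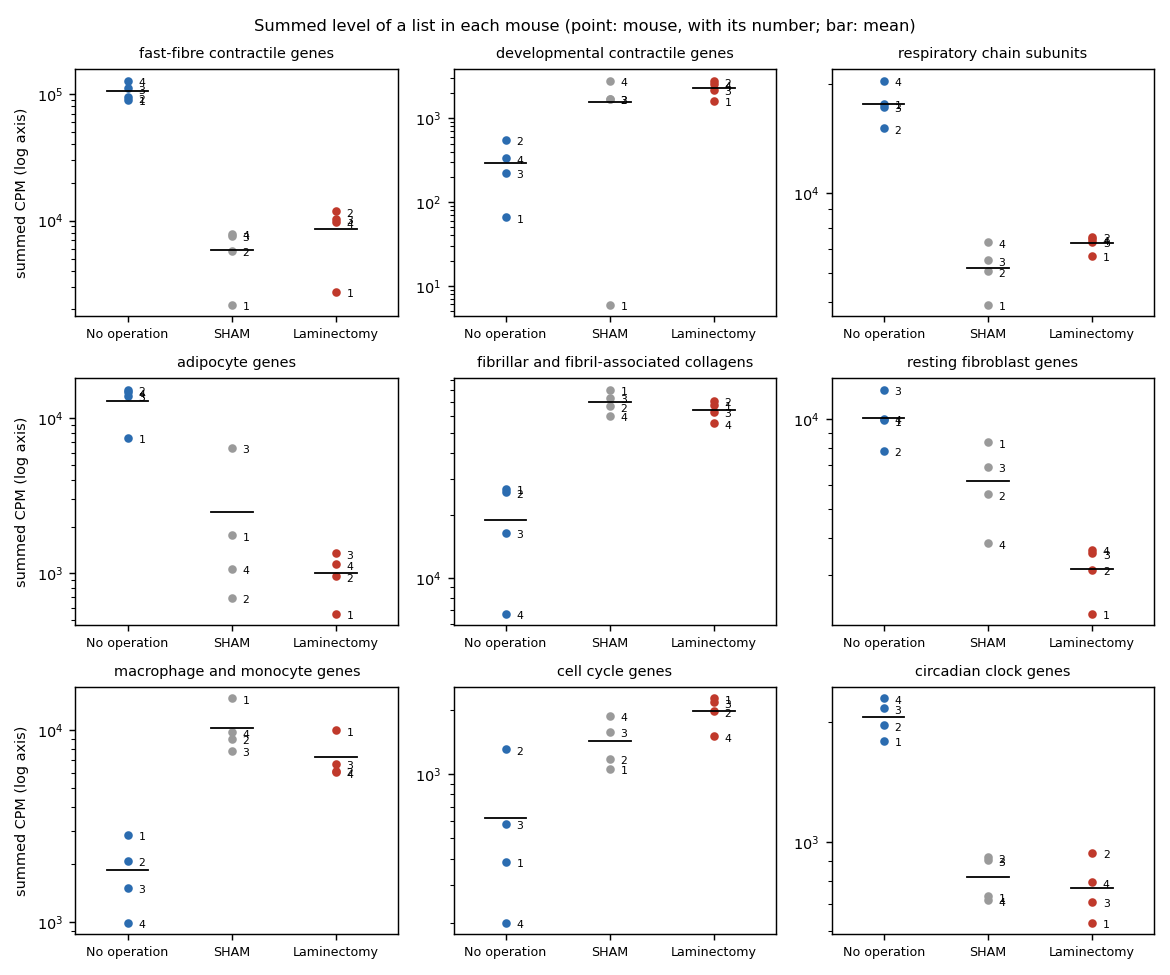
Summed CPM of the members of 9 gene lists in each of the 12 mice, on a log axis, with 1 point a mouse. In each of the 9 lists the 4 Laminectomy mice lie wholly above or wholly below the 4 No operation mice; the SHAM mice are drawn for reference.

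Cell division genes rose almost without exception. Of 39 members, 36 were higher and none lower, with a median of 1.97, and their summed level was 387, 1306, 581 and 200 CPM without operation and 2262, 1973, 2171 and 1505 CPM in the scar. The highest No operation values came from mice 2 and 3, which also held marrow RNA, and Mki67, the proliferation antigen, was at 17.1, 181, 71.5 and 4.63 CPM against 182, 190, 230 and 143 CPM and was not called (1.44, SE 0.77, adjusted p 0.129). Without these mice, which were singled out after their marrow counts were seen, it was called at 4.11 (adjusted p 0.000342). Mcm5, a helicase of DNA replication, rose by 1.68 (SE 0.51, adjusted p 0.0141). Without Laminectomy mice 2 and 3, 23 members were called, and without mouse 1 of both groups, 22, and the call of Mcm5 was lost in both settings (adjusted p 0.0788 in the latter).

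Of 68 cytosolic ribosomal proteins, 23 were higher and none lower, with a median of 0.45, and without TMM scaling 62 were higher. Rplp0, a stalk protein often used as a reference gene, had a log2 fold change of 0.29 (SE 0.12, adjusted p 0.0608), and its 4 scar values, from 1058 to 1169 CPM, lay above the 4 others, from 861 to 1014 CPM. Of 34 proteasome subunits, 3 were higher and 7 lower, and without TMM scaling none was lower. The higher ones were Psmb8, Psmb9 and Psmb10, the subunits of the immunoproteasome, with Psmb8 up by 0.83 (SE 0.22, adjusted p 0.00635).

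Genes of bone and cartilage could not be read against all 4 No operation mice either. Of 15 osteoblast and osteocyte genes, 4 were higher (26.7%) and of 14 cartilage genes 4 (28.6%), both close to the 24.2% over all genes. Ibsp was at 0.48, 223.7, 74.0 and 1.05 CPM without operation and at 1499, 1375, 574 and 501 CPM in the scar. All 4 scar values were higher, and with the spread of the other group the log2 fold change of 3.72 (SE 1.61) was not called (adjusted p 0.0651), but was without SHAM mouse 1 (adjusted p 0.0407). Without No operation mice 2 and 3, 15 of 15 osteoblast and osteocyte genes were called higher instead of 4, with a median of 5.0 instead of 1.48. Sp7, the transcription factor that defines osteoblasts, then moved from 1.85 (adjusted p 0.177) to 7.44 (adjusted p 0.00137). These mice were singled out by their bone and marrow counts, so the larger rises follow from the choice and are no separate support. Among the cartilage genes 2 were lower, and their summed level of 300, 1384, 1559 and 787 CPM without operation overlapped that of 980, 2014, 680 and 503 CPM in the scar. Without No operation mice 2 and 3, 8 were higher and 1 lower, with a median of 3.34 instead of 1.55. Acan, the aggrecan of cartilage, rose by 3.17 (SE 0.90, adjusted p 0.00996), from 12.1, 34.1, 13.7 and 1.33 CPM to 172, 221, 87.0 and 73.9 CPM. Whether bone was dissected along with the soft tissue was not recorded in the labels, and the bone share of each sample cannot be told apart from a change in bone cells.

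Osteoclast genes were called against all 4 No operation mice, although mice 2 and 3 were the highest of that group here too. Of 13 members, 10 were higher and none lower, with a median of 2.49, and their summed level was 333, 1435, 639 and 227 CPM without operation and 4821, 2190, 2349 and 2740 CPM in the scar. Without mouse 1 of both groups 7 were higher, with a median of 2.06, and without No operation mice 2 and 3, 11 were, with a median of 3.85. Ctsk and Atp6v0d2 are also on the list of lipid-associated macrophages and Mmp9 is on that of neutrophils. Ocstamp, which drives fusion of osteoclast precursors, was at 0.76, 3.21, 1.13 and 0.35 CPM and rose to 32.9, 10.7, 10.8 and 17.0 CPM, a log2 fold change of 3.69 (SE 0.70, adjusted p 0.000899). Acp5, the tartrate-resistant acid phosphatase of osteoclasts, was at 25.2, 312, 119 and 38.3 CPM without operation and rose by 1.87 (SE 0.67, adjusted p 0.0307). That call was lost without Laminectomy mouse 1, which had 732 CPM (adjusted p 0.083), and without No operation mouse 1 (0.0505), 3 (0.0664) or 4 (0.0722). Tnfsf11, the RANK ligand that starts osteoclast formation, rose by 3.49, and Tnfrsf11b, its decoy receptor, had 0.36 and was not called. Of 11 erythroid genes, 0 were called by edgeR (0 at an unadjusted p below 0.05) and 0 by DESeq2, and 8 were called higher by edgeR without No operation mice 2 and 3. Alas2, the heme synthesis enzyme of red cell precursors, had a log2 fold change of 0.31 (SE 0.69).

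Calls of glial and peripheral nerve genes depended on Laminectomy mice 2 and 3. Gfap, of astrocytes and some Schwann cells, was at 0.21, 1.20, 1.6 and 0.14 CPM without operation and at 1.38, 52.8, 18.1 and 0.26 CPM in the scar. It was called higher (4.50, SE 1.32, adjusted p 0.0116), and without Laminectomy mice 2 and 3 its log2 fold change was 0.05 (adjusted p 0.97). Of 16 peripheral nerve genes, 2 were higher and 2 lower with all mice, and 7 were lower without Laminectomy mice 2 and 3. Of the 4 tested neuron genes, 2 were higher with all mice and also without these 2. Tubb3, a tubulin of neurons, was at 4.14, 0.63, 0.799 and 1.61 CPM without operation and at 13.1, 21.8, 10.2 and 9.96 CPM in the scar, with no overlap (2.94, SE 0.51, adjusted p 0.000496). It did not follow other neuron genes. In Laminectomy mice 1 and 4, Snap25 had 1 and 0 counts and Nefl 0 and 1. Stmn2 was at 4.08 and 6.31 CPM in these mice, against 7.43 to 13.3 CPM without operation. Tubb3 was also at 8.13 to 11.6 CPM in the SHAM mice, where Snap25 had 1 count at most.

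Of 10 tendon genes, 2 were higher and 3 lower, close to the shares over all genes (24.2% and 24.4%), and without No operation mice 2 and 3, 1 was lower. Scx, the transcription factor of tendon cells, had a log2 fold change of 0.17 (SE 0.48) and Tnmd, tenomodulin of mature tendon, of -0.79 (SE 0.54), and neither was called. Of 4 tested keratinocyte genes, 1 was lower and none higher.

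Clock genes were lower in all but a few members. Of 17, 13 were lower and 1 higher, with a median of -1.63, and their summed level was 1792, 1957, 2161 and 2285 CPM without operation and 630, 941, 709 and 794 CPM in the scar. Dbp, a clock output factor with a strong daily rhythm, was at 79.5, 142, 159 and 125 CPM and fell to 14.7, 38.8, 19.8 and 32.6 CPM, by 2.26 on the log2 scale (SE 0.35, adjusted p 0.000239). Exons of Dbp overlap those of Sphk2 on the other strand over 29.3% of their bases. Arntl, the activator of the clock, stood at 25.7, 7.81, 10.3 and 13.9 CPM and at 16.8, 10.4, 21.2 and 11.8 CPM, with a log2 fold change of 0.06 (SE 0.36), and Clock, its partner, had 0.23. Npas2, which can replace Clock, was the single higher member (2.09). The hour of tissue collection is not in the labels, so that a difference in hour between groups was not tested.

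Of 33 ligands and inhibitors of the IGF, BMP and Wnt pathways, 8 were higher, the same share as over all genes (24.2%), and 15 were lower (45.5% against 24.4%), with a median of -0.74. Without TMM scaling 12 were higher and 8 lower, and without No operation mice 2 and 3 or without mouse 1 of both groups 10 were lower. Igf2, the fetal insulin-like growth factor, rose by 3.37 (SE 0.47, adjusted p 0.000124), while Igf1 had a log2 fold change of 0.38 (SE 0.23, adjusted p 0.171). Bmp4 and Bmp6 changed by -2.60 and -2.51. Sfrp2, a secreted Wnt modulator of fibroblasts, rose by 1.35 (SE 0.37, adjusted p 0.00836).

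Of 16 genes of pain mediators and neurotrophins, 6 were higher (37.5% against 24.2% over all genes) and 5 lower (31.2% against 24.4%), and without No operation mice 2 and 3, 3 were higher and 3 lower. Ngfr, a neurotrophin receptor that Schwann cells carry, was not called (1.05, SE 0.48, adjusted p 0.0802), but was without SHAM mouse 1 (adjusted p 0.0326). Bdkrb1, the inducible bradykinin receptor, rose by 3.05, and Ntf3 and Ntf5, neurotrophins made by muscle, changed by -3.21 and -3.71.

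Outside the lists, Mest (gene 17294, chr6:30733506-30748466), an imprinted gene of growing mesoderm and of expanding fat, was among the largest rises. It was at 30.3, 21.4, 11.3 and 8.76 CPM without operation and at 576, 700.0, 614 and 609 CPM in the scar, a log2 fold change of 5.12 (SE 0.53, adjusted p 2.16e-05). Myoc, myocilin, a secreted protein of muscle and connective tissue, was at 361, 452, 1005 and 665 CPM and at 0.74, 25.1, 37.1 and 13.3 CPM in the scar, a log2 fold change of -5.02 (SE 0.96, adjusted p 0.000958). Exons of Mest overlap those of Copg2 on the other strand over 32.9% of their bases, and the methods name featureCounts with default settings, which do not use strand, so reads of the 2 genes may not have been told apart. The same holds for Dbp, and to a lesser extent for Sfrp2 (17.3% of exon bases), Ckm (16.4%), Alas2 (15.3%), Psmb8 (11.4%) and Cox6a2 (10.3%), which overlap other genes on the opposite strand.

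Whether lamina excision itself altered these genes was asked against the SHAM scar. The edgeR fit gave 0 DEGs for this difference, where 2359 genes had an unadjusted p below 0.05 and the smallest adjusted p was 0.0698, while DESeq2 called 601, of which 265 (1.79% of the genes tested) were higher and 336 (2.28%) lower in the Laminectomy scar. Acan differed by 3.10 on the log2 scale (SE 0.90) with an adjusted p of 0.15 in edgeR. The lists with at least 5 members called higher in DESeq2 were those of cartilage (8 of 14), osteoclast (5 of 13) and erythroid genes (5 of 11). At least 5 members were lower among resident macrophage (11 of 19), complement (10 of 19), resting fibroblast (8 of 22), MHC class II and dendritic cell (6 of 15), cytokine (6 of 18), mast cell (5 of 9) and TGF-beta genes (5 of 24). These differences therefore depend on the tool. SHAM mice 1 and 3 stood apart in markers of skin, with a summed level of keratinocyte genes of 181.5 and 90.0 CPM against 19.6 and 11.6 CPM in SHAM mice 2 and 4, and DESeq2 called Krt5 and Dsp of that list lower in the Laminectomy scar. SHAM mouse 3 also had 6452 CPM of adipocyte genes against 695 to 1755 CPM. The same 2 mice were the highest of the SHAM group in the summed levels of complement genes (10410 and 6893 against 5418 and 4170 CPM), resting fibroblast genes (8382 and 6920 against 5609 and 3839 CPM) and resident macrophage genes (5245 and 2361 against 2121 and 1844 CPM), and the part of this in the DESeq2 calls was not tested.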

How the data were processed

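Poly(A) RNA of 12 mice was sequenced, and the submitters' notes name STAR 2.6.1b, featureCounts 2.0.1, DESeq2 1.30.1 and GRCm38/mm10. The authors deposited 1 table of gene counts; 10.22% of the deposited values are not whole, so the authors' table was read as estimated counts, made from aligned reads per gene before deposit, and rounded, which moved no value by more than 0.5. The methods name default settings for featureCounts, which ignore strand and give whole counts. How the values that are not whole arose is not given in the sources used here. Totals were 16802988 to 18077863 counts per mouse.

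Genes were filtered with filterByExpr, scaled by TMM and fitted over all 12 mice (group only) with edgeR 4.0.16 (R 4.3.3, limma 3.58.1); SE is that of the log2 fold change. CPM are per 1000000 of the TMM-scaled total. DEGs had an adjusted p (Benjamini-Hochberg) below 0.05 and a log2 fold change beyond 0.5. The fit was tested on simulated data. Samples, named genes and 57 gene lists were chosen with earlier results of these data known; named genes were anchors picked for their role and the 6 with the largest rise, fall, CPM gain and CPM loss. List members named without an SE were chosen after their values were seen, by role or as exceptions; 4 named genes are not reported here. Alternatives were DESeq2 1.42.0, other scalings and filters, a stricter fold, the 8 mice alone, a replicate block and leaving out mice. Promoters were read from RefSeq's table for GRCm38.p6.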

Additional observations from a re-analysis of the deposited data

Results flagged for a closer look

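In each group of 4, the highest or lowest mouse was compared with its nearest neighbour by Dixon's test over the genes described above. Of 230 sets of 4 mice, 21 had 1 mouse apart. The threshold stands for about 1 in 20 with independent, normally distributed values. CPM of many genes from the same mice are not independent and can be skewed, so no excess over chance can be read from the count. Of these, 10 were high values of No operation mouse 1: Adamts4 (20.9 CPM), Ankrd2 (969.7), Arg1 (41.0), Ccl2 (30.3), Ccl8 (36.9), Col3a1 (9680), Fbn2 (22.9), Lrrc15 (155), Postn (2053) and Timp1 (54.2). These are genes of matrix and wound inflammation, apart from the muscle gene Ankrd2.

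Laminectomy mouse 1 was apart for high values of Acp5 (732 CPM), Arg1 (456), Hmox1 (1022), Inhba (123), Loxl2 (847), Mmp12 (415) and Spp1 (3566), and for low values of the muscle genes Cox6a2 (9.32), Pvalb (19.9) and Tnnt3 (317). No operation mouse 2 was apart for Psmb8 (31.1 CPM). No explanation for these values was tested.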

How the results depend on the processing

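The counts of 3578 higher and 3605 lower DEGs became 5456 and 2347 without a scaling factor and 2155 and 2168 at a log2 fold change above 1. They lay between 3238 and 3738 higher and between 3280 and 3678 lower when single mice were left out. Without mouse 1 of both groups they were 3221 and 3326, without Laminectomy mice 2 and 3 they were 3302 and 3468, and without No operation mice 2 and 3 they were 3683 and 3492 (all 3 chosen after seeing the data). DESeq2 gave 3749 and 3586. The 8 mice alone gave 3457 and 3524, ended the calls of Acp5 (adjusted p 0.0579) and Mmp12 (0.0528) and added that of Ngfr (0.0473). Under none of these settings was a DEG called in the opposite direction. Between Laminectomy and SHAM, edgeR called 0 genes and DESeq2 601. Cd79a, a B cell receptor chain, reversed from -1.04 (not called) to 3.43 (adjusted p 0.00254) without No operation mice 2 and 3. The same setting, which leaves 2 mice in that group, ended the calls of C3, Ccl2, Col3a1, Col4a1, Hspa5, Mmp12, Myog, Postn, Tgfb3, Tnnt2 and Chrna1 (adjusted p 0.0501 to 0.124). Without Laminectomy mice 2 and 3, those of C3, Chrna1, Col1a2, Mcm5, Slc40a1, Tgfb3 and Fap were lost (adjusted p 0.0533 to 0.101). Without mouse 1 of both groups, those of Acp5, C3, Chrna1, Fap, Inhba, Mcm5 and Mmp12 were lost (adjusted p 0.0565 to 0.183). Of lists not given with these settings above, without Laminectomy mice 2 and 3 the higher members fell from 8 to 5 of the T and NK cell genes and of the plasminogen and coagulation genes and rose from 23 to 36 of the cytosolic ribosomal proteins, and the lower members of the complement genes fell from 8 to 5. Without No operation mice 2 and 3, higher heme and iron genes went from 5 to 8 and lower proteasome subunits from 7 to 11. Without mouse 1 of both groups, higher MHC class II and dendritic cell genes went from 5 to 2. Library totals alone, with no scaling factor, added calls for Arg1, Ccl8, Csf3r, Cxcl12, Fbln5, H2-Aa, Igf1, Lrrc15, Ngfr, Plvap and Rplp0 and ended that of C3, and DESeq2 added Arg1, Csf3r, Ibsp and Ngfr. Among single mice, leaving out No operation mouse 2 added calls for Csf3r, Cxcl12, Ibsp, Mki67 and Sp7, No operation mouse 3 for Igf1 and Ngfr, No operation mouse 4 for Csf3r, Laminectomy mouse 1 for Igf1 and Laminectomy mouse 3 for Plvap.

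With the replicate number as a block, 3571 genes were higher and 3582 lower, and 97.2% of the DEGs were shared. The block added calls for Arg1 (5.24, adjusted p 0.000316), Ccl8 (2.43, 0.0374) and Lrrc15 (3.70, 0.0197) and ended those of C3 (adjusted p 0.0818) and Chrna1 (0.0528). Deviations of mice with the same number correlated at 0.192, 0.069, 0.286 and 0.352, of which 3 were over 0.1, and those of mice with different numbers lay between -0.353 and 0.224. No operation mice 1 and 2 correlated best with another number, and the labels do not say that a number marks a shared litter, batch or day, so the numbers were not taken to pair mice. DESeq2 gave no adjusted p for Col3a1, Gzmb, Lrrc15, Postn and Spp1. Depth was even across mice. Without SHAM mouse 1 there were 3691 higher and 3627 lower DEGs.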

Other observations

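Gene families below were listed after their values were seen and are described only. Of 37 tested imprinted genes, 13 were higher in the Laminectomy scar and 8 lower, against 24.2% and 24.4% of all genes, with a median log2 fold change of 0.14. Among those that rose were Mest by 5.12, Zdbf2 by 3.38 (SE 0.71), Igf2 by 3.37 and Igf2r, the receptor that clears Igf2, by 0.97 (SE 0.17), as well as Grb10, an adaptor that restrains insulin receptor signalling, by 1.65 (SE 0.18) and Cdkn1c, an inhibitor of the cell cycle, by 1.09 (SE 0.24). Exons of Cdkn1c overlap another gene on the other strand over 30.3% of their bases. Igf2 was at 56.4, 63.7, 61.1 and 88.3 CPM without operation and at 493, 863, 579 and 851 CPM in the scar, with no overlap. Nnat, neuronatin, which is abundant in fat, was at 15.8, 123, 91.3 and 93.6 CPM and at 0.48, 5.86, 8.03 and 4.8 CPM, and changed by -4.07 (SE 0.82). Annotated exons of Igf2 overlap another gene on the same strand over 68.5% of their bases.

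The Ms4a family of membrane proteins, many of them found on macrophages, had 8 of 13 tested members higher and 1 lower, with a median of 2.06. Ms4a7 was at 16.7, 4.41, 3.00 and 2.73 CPM and rose to 101, 72.4, 82.2 and 84.3 CPM, by 3.67 (SE 0.50, adjusted p 0.000114 in edgeR). The member that fell was Ms4a2, a chain of the IgE receptor of mast cells (-1.53, SE 0.57). The Asb family of ubiquitin ligase adaptors had 12 of 16 members lower and none higher, with a median of -3.08. Asb11 (-4.93), Asb15 (-4.86) and Asb2 (-3.43), all expressed in muscle, were among the lower ones, and Asb1, Asb3, Asb6 and Asb7 were not called.

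The major urinary protein genes (Mup) were lower in 8 of 9 tested members, with a median of -3.84. Mup22 was at 376, 1635, 854 and 1223 CPM without operation and at 0.11, 15.2, 58.3 and 124 CPM in the scar. These genes are near copies of one another and their counts hold fractions, so the values of single members are uncertain.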
